A study of Mus musculus with 30 samples.

Results

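Ribosomal protein genes encode the proteins of the large and small subunits of the cytoplasmic ribosome. They were taken as the protein-coding genes of the GENCODE M21 annotation (mouse build GRCm38) with an Rpl or Rps symbol followed by a number and at most 1 letter, or by p0, p1 or p2. This gave 79 starts of 21938 protein-coding starts. Of these, 46 belong to large-subunit genes, 3 to the stalk genes Rplp0, Rplp1 and Rplp2, and 30 to small-subunit genes. The set includes the paralogues Rpl3l, Rpl10l and Rpl39l, which are known for tissue-restricted expression, and 4 genes on the X chromosome (Rpl10, Rpl36a, Rpl39 and Rps4x).

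The series used ChIP-seq, the sequencing of DNA recovered with a protein from fixed chromatin, in mouse E14 embryonic stem cells, a single cell line grown in serum-free medium with LIF, PD0325901 and CHIR99021. All cells carried CTCF fused to an auxin-inducible degron (AID), so the untreated group (0 h) also held the tagged protein, and the other group received the auxin indole-3-acetic acid (IAA) for 12 h. CTCF and the cohesin subunit SMC1A had 1 library at each time. The remodelers CHD4, CHD8, SMARCA4 and SMARCA5 were biotin-tagged in CTCF AID cells, 1 remodeler per sample, and had 2 libraries at each time, which makes 16 remodeler libraries and 20 lists of peaks in all. The labels do not say whether paired libraries came from separate cultures, so their spread may be technical.

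Ribosomal protein genes are among the most strongly transcribed genes of dividing cells. Their promoters usually lack a TATA box, hold CpG islands, and start at a pyrimidine within a short pyrimidine run, the 5′ terminal oligopyrimidine tract through which growth signals control translation of the message. CHD4 is the ATPase of the NuRD complex, SMARCA4 (BRG1) the ATPase of the BAF complexes, SMARCA5 (SNF2H) the ATPase of ISWI complexes, and CHD8 a chromodomain helicase found at active promoters. CTCF is a zinc-finger protein that stops the loop-extruding ring complex cohesin.

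A start was called occupied in a library when a listed peak reached within 1 kb of the annotated 5′ end of the gene. The peak lists hold no read counts, so the depth is unknown, and a start without a peak may hold signal below the authors' threshold. List lengths ran from 40880 to 51943 peaks for CHD8, 55488 to 73238 for SMARCA5, 70428 to 102636 for SMARCA4 and 105001 to 187294 for CHD4. CTCF had 29934 peaks at 0 h and 2248 at 12 h, and SMC1A 16724 and 10. For 6 genes the principal coding transcript starts more than 1 kb from the annotated 5′ end (Rpl3, Rpl17, Rps2, Rps10, Rps14 and Rps24), as for 9.47% of other genes. Peak ranks, summit positions and sequences are therefore given at the start of the principal transcript, called the principal start.

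The promoters at both ends of the range of CHD8 peaks are shown first, because CHD8 is the remodeler that set these genes apart most by rank. Each line gives 100 bases before to 20 bases after the principal start in the GRCm38 reference, 5′ to 3′ on the strand of the gene, with matches to the motifs described with the promoter sequences below in capitals. Rpl35a (chr16:33056353-33056472, plus strand), Rps15a (chr7:118116169-118116288, minus strand) and Rpl36 (chr17:56613316-56613435, plus strand) were among the members with the highest mean CHD8 rank at 0 h. Rpl3l (chr17:24727720-24727839, plus strand) and Rpl39l (chr16:10170128-10170247, plus strand) had the lowest.
Rpl35a: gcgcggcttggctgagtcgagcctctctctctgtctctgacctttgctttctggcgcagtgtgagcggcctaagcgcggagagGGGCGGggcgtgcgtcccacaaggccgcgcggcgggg
Rps15a: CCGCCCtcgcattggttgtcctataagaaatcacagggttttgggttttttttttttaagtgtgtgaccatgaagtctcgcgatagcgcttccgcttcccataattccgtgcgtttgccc
Rpl36: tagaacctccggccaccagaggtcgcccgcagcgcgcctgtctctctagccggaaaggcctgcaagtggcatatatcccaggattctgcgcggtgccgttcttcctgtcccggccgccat
Rpl3l: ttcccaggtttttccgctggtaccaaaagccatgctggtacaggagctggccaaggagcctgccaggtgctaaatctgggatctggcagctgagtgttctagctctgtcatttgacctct
Rpl39l: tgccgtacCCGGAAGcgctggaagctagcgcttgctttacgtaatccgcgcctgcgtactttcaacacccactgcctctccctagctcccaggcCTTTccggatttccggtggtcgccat
The capitals are a GC box in Rpl35a and, on the other strand, in Rps15a, and the ETS core and a CTTT near the start in Rpl39l. Rpl36 and Rpl3l hold none of the motifs marked in capitals in this stretch, and Rpl36 has a pyrimidine run of 8 bases at its start.

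All 4 remodelers had peaks at a larger share of ribosomal protein starts than of other protein-coding starts, in each of the 16 libraries. CHD8 peaks lay at 98.7% and 97.5% of the 79 starts in its 0 h libraries and at 98.7% in both 12 h libraries, against 56.5% to 61.2% of the 21859 other starts. SMARCA4 peaks lay at 98.7% and 93.7% at 0 h and at 94.9% and 98.7% at 12 h, against 56.1% to 63.5%. SMARCA5 peaks lay at 82.3% and 91.1% at 0 h and at 93.7% and 92.4% at 12 h, against 43.8% to 53.8%. CHD4 peaks lay at 84.8% and 86.1% at 0 h and at 81.0% and 68.4% at 12 h, against 58.0% to 63.3%.

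The gap to other starts at 0 h was 39.0 ± 0.64 percentage points for SMARCA5 (SD, n = 2 libraries), 38.5 ± 1.42 for CHD8, 36.4 ± 1.52 for SMARCA4 and 22.3 ± 0.66 for CHD4. In each remodeler the gap exceeded the spread between its libraries. Its size depends on the peaks counted: with a −log10 q of at least 5 the CHD4 gap was 10.5 points, and with a 250 bp window it was 14.6 for CHD4 and 24.5 for SMARCA5. With 2 libraries per time no test within a remodeler can give a two-sided exact permutation p below 0.333. Windows moved by 100 kb to either side of the same genes were occupied in 9.49% to 27.2% of cases, and starts of 294 annotated ribosomal protein pseudogenes in 2.72% to 15.6%.

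High occupancy was shared by other housekeeping gene groups. At 0 h CHD4 lay at 98.6% ± 1.96 (SD, n = 2) of 36 respiratory complex I starts, 92.9% ± 2.72 of 78 mitochondrial ribosomal protein starts, 90.9% ± 0 of 44 ribosome biogenesis starts and 79.5% ± 0 of 39 proteasome starts, against 85.4% ± 0.90 of the members. CHD8 lay at 98.1% to 100% of the first 3 groups and 89.7% of proteasome starts, against 98.1% of the members. SMARCA5 lay at 71.8% to 78.4% of these 4 groups, against 86.7% ± 6.27 of the members. It lay at 91.7% ± 11.8 of 18 other translation genes with 5′ terminal oligopyrimidine messages, and at all 7 ribosomal protein genes outside the symbol pattern, such as Rpsa and Fau.

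**Figure D1:**
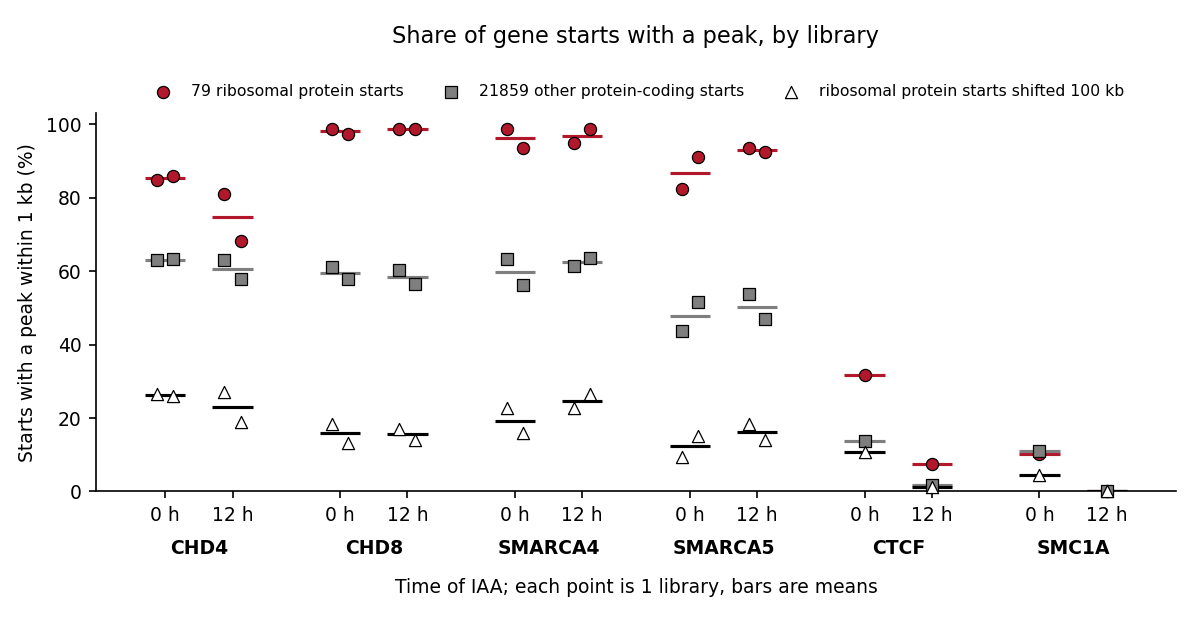
Share of starts with a peak within 1 kb, in percent, for each library at 0 h and 12 h of IAA; circles are the 79 ribosomal protein starts, squares the 21859 other protein-coding starts, triangles the ribosomal protein starts moved by 100 kb, and bars are means. In the 16 remodeler libraries the circles lie between 68.4% and 98.7% and the squares between 43.8% and 63.5%.

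Most members were occupied by nearly every library. A peak was present in all 16 remodeler libraries at 36 members (45.6%), against 30.9% of other starts, and in 15 at 18 more. The share with all 16 was 44.4% at other translation genes, 41.0% at proteasome genes and 40.9% at ribosome biogenesis genes. It was 34.6% at mitochondrial ribosomal protein genes, 33.3% at complex I genes and 71.4% at the ribosomal protein genes outside the pattern. Rpl17, a large-subunit gene, was the 1 member with no remodeler peak at its annotated start, which lies 1919 bp from its principal start. At the principal start Rpl17 had a peak in all 16. No remodeler peak in any library was found at 29.1% of other starts.

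Rps4x (9 of 16), Rpl36a (10), Rps6 and Rps12 (11 each) were the next lowest, named here after their values were seen. CHD4 accounts for most of what was missing: Rps4x, Rpl36a, Rps6 and Rps12 had no CHD4 peak in any of the 4 libraries. Rpl4, Rpl41, Rps16 and Rps27 had one in 1 of 4. At principal starts 46 members had a CHD4 peak in all 4 libraries, 59 a SMARCA5 peak, 74 a SMARCA4 peak and 79 a CHD8 peak.

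**Figure D2:**
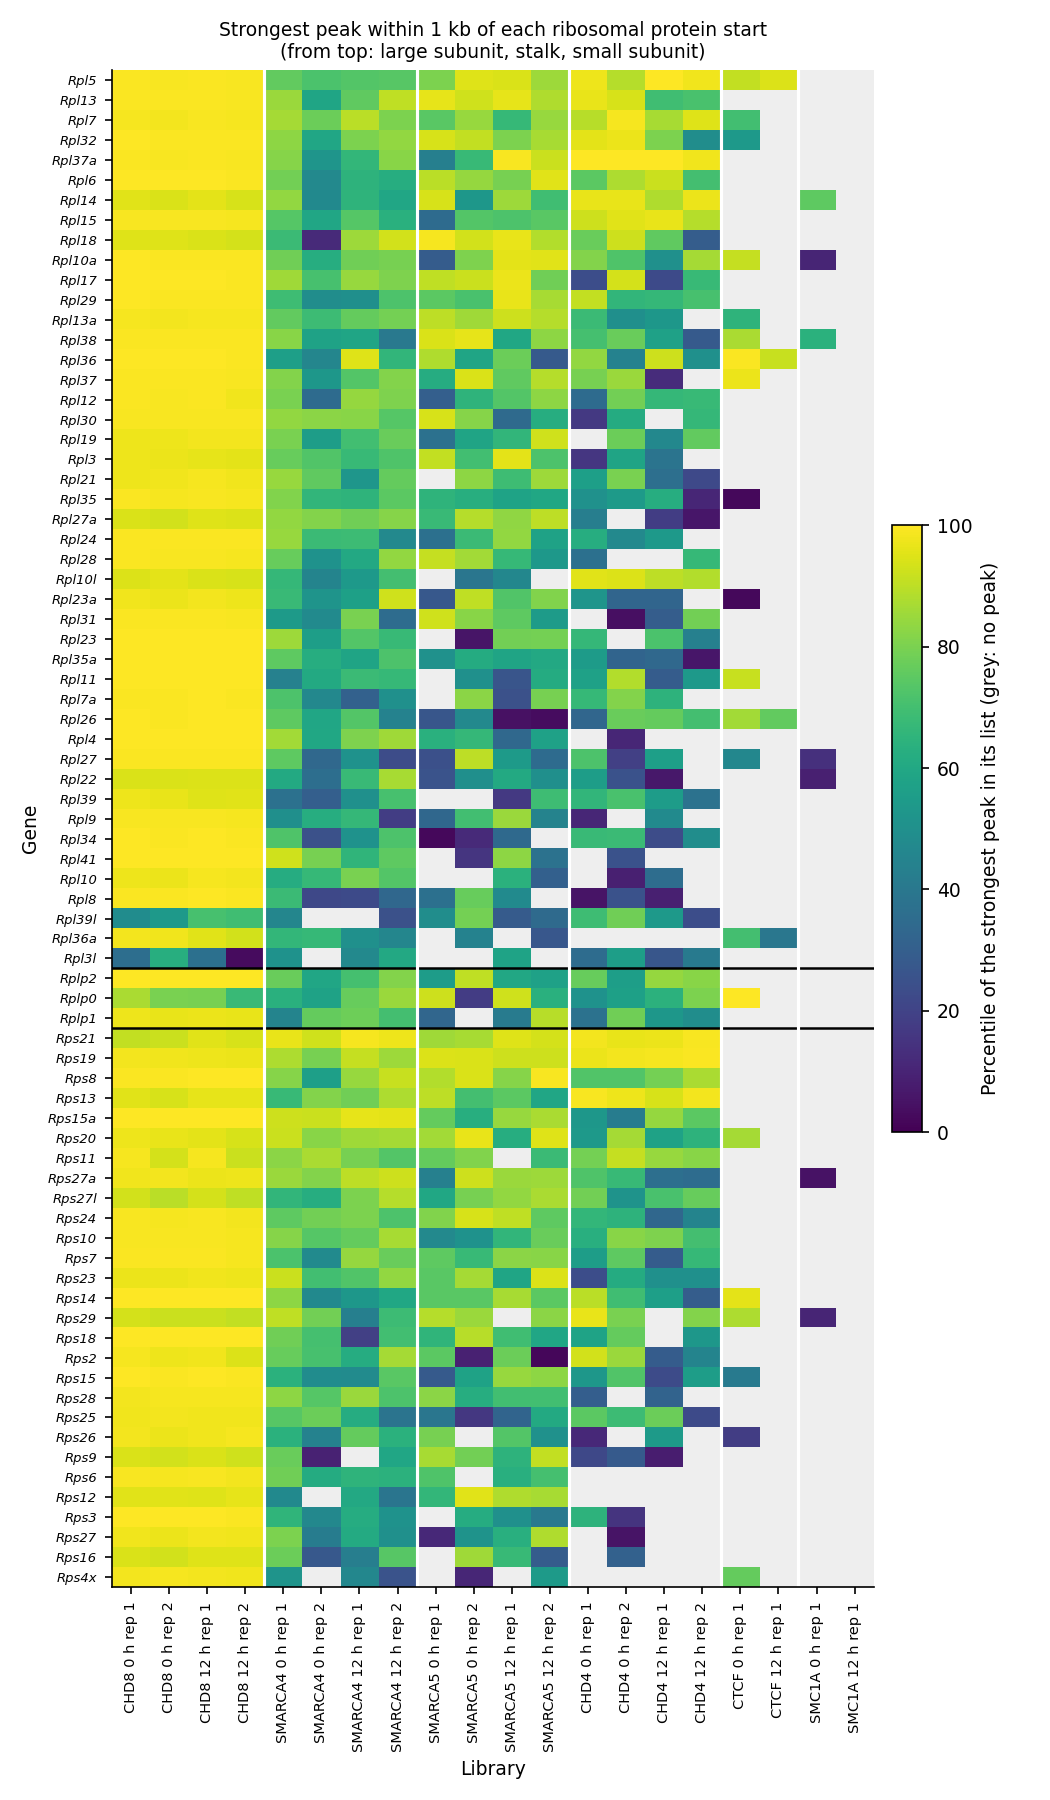
Percentile of the strongest peak within 1 kb of the principal start of each of 76 of the 79 genes (rows) in each of the 20 libraries (columns), ranked within the library's own list, from 0 to 100; grey means no peak. The CHD8 columns are near 100 for most rows, with Rpl3l, Rpl39l and Rplp0 lower, while CHD4 columns hold most of the grey cells among the remodelers.

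CHD8 peaks at these genes were among the strongest in the CHD8 lists. The percentile of a peak is its rank by −log10 p within its own list, and fold enrichment is the authors' own value for the peak. The median percentile of the strongest peak at the 79 starts was 99.1 and 98.7 at 0 h and 99.0 and 98.5 at 12 h, against 84.6 to 87.4 for other starts with a CHD8 peak. Between 75 and 76 of the 79 lay in the top 10% of each CHD8 list (94.9% to 96.2%), against 34.4% to 41.4% of other starts with a peak. The median fold enrichment was 28.3 to 44.6 at the members and 8.64 to 11.8 at the others. The peaks were also wider, with medians of 2023 to 2608 bp against 1150 to 1376 bp. Like widths were found at the 7 ribosomal protein genes outside the symbol pattern (2012 to 2522 bp) and at the other translation genes (1713.5 to 2324 bp). Mitochondrial ribosomal protein, proteasome, complex I and ribosome biogenesis genes gave 1097.5 to 1791.5 bp.

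Rpl35a, a large-subunit protein mutated in Diamond-Blackfan anaemia, had fold enrichments of 149.2 and 107.8 at 0 h and 170.0 and 129.4 at 12 h, the highest mean rank of the set. Rps15a, of the small subunit, had 132.3 and 100.9 at 0 h and 131.8 and 83.8 at 12 h. Rpl11, a large-subunit protein that also binds MDM2, had 79.7 and 58.9 at 0 h and 98.4 and 62.3 at 12 h. The values of the 2 times overlapped for each of these 3 genes, and replicate 1 was higher than replicate 2 at both times.

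A total of 75 members were in the top 10% of all 4 CHD8 lists. The following genes are named after their values were seen, apart from Rplp0. Rps27l was in the top 10% of 3 lists, with percentiles of 89.8 to 93.5. Rpl3l, Rpl39l and Rplp0 were in the top 10% of none. Rpl3l, a muscle paralogue of Rpl3, had CHD8 fold enrichments of 3.79 and 5.43 at 0 h and 3.33 and 2.32 at 12 h. Rpl39l, a testis paralogue of Rpl39, had 4.36 and 4.59 at 0 h and 7.52 and 6.24 at 12 h. The third restricted paralogue, Rpl10l, had 24.7 in both 0 h libraries and 24.96 and 18.01 at 12 h, inside the range of the other members. Rplp0, the stalk base protein, had 10.9 and 7.22 at 0 h and 6.51 and 4.35 at 12 h. The other stalk genes ranked far higher: Rplp2 had 58.9 and 47.3 at 0 h, and Rplp1 28.9 and 21.8.

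High CHD8 rank was shared by other gene groups of the protein synthesis and energy machinery. Over the 4 libraries, 83.3% to 100% of 18 other translation genes with 5′ terminal oligopyrimidine messages had a CHD8 peak in the top 10%, among those with a peak. The same share was 74.4% to 89.7% for 78 mitochondrial ribosomal protein genes, 72.2% to 88.9% for 36 respiratory complex I genes, 70.3% to 81.1% for 39 proteasome genes and 65.9% to 81.8% for 44 ribosome biogenesis genes. The 79 members gave 94.9% to 96.2%, so their share overlapped that of the 18 translation genes and lay above the ranges of these 4 groups. The 7 ribosomal protein genes outside the symbol pattern gave 71.4% to 100%, a range that takes in the members. The members' share at 0 h, 95.6% on average, was 90.5% with a −log10 q of at least 5. The median fold at the translation genes was 21.6 to 33.8.

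The other remodelers did not rank members this way. CHD4 peaks at the members had median percentiles of 66.3 and 72.6 at 0 h and 56.3 and 66.96 at 12 h, below the 76.1 to 86.1 of other starts with a CHD4 peak in every library. The CHD4 medians of like gene groups overlapped those of the members. They were 67.5 to 78.5 at mitochondrial ribosomal protein genes, 67.8 to 78.2 at complex I genes and 67.7 to 76.4 at ribosome biogenesis genes. Proteasome genes gave 61.0 to 79.3 and other translation genes 68.4 to 77.3. SMARCA4 peaks had 77.1 and 59.7 at 0 h and 69.6 and 73.1 at 12 h, against 66.3 to 77.1. SMARCA5 peaks had 74.5 and 77.4 at 0 h and 72.7 and 77.1 at 12 h, against 65.3 to 72.8. In SMARCA4 and SMARCA5 the ranges of the members and the other starts touched or overlapped.

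**Figure D3:**
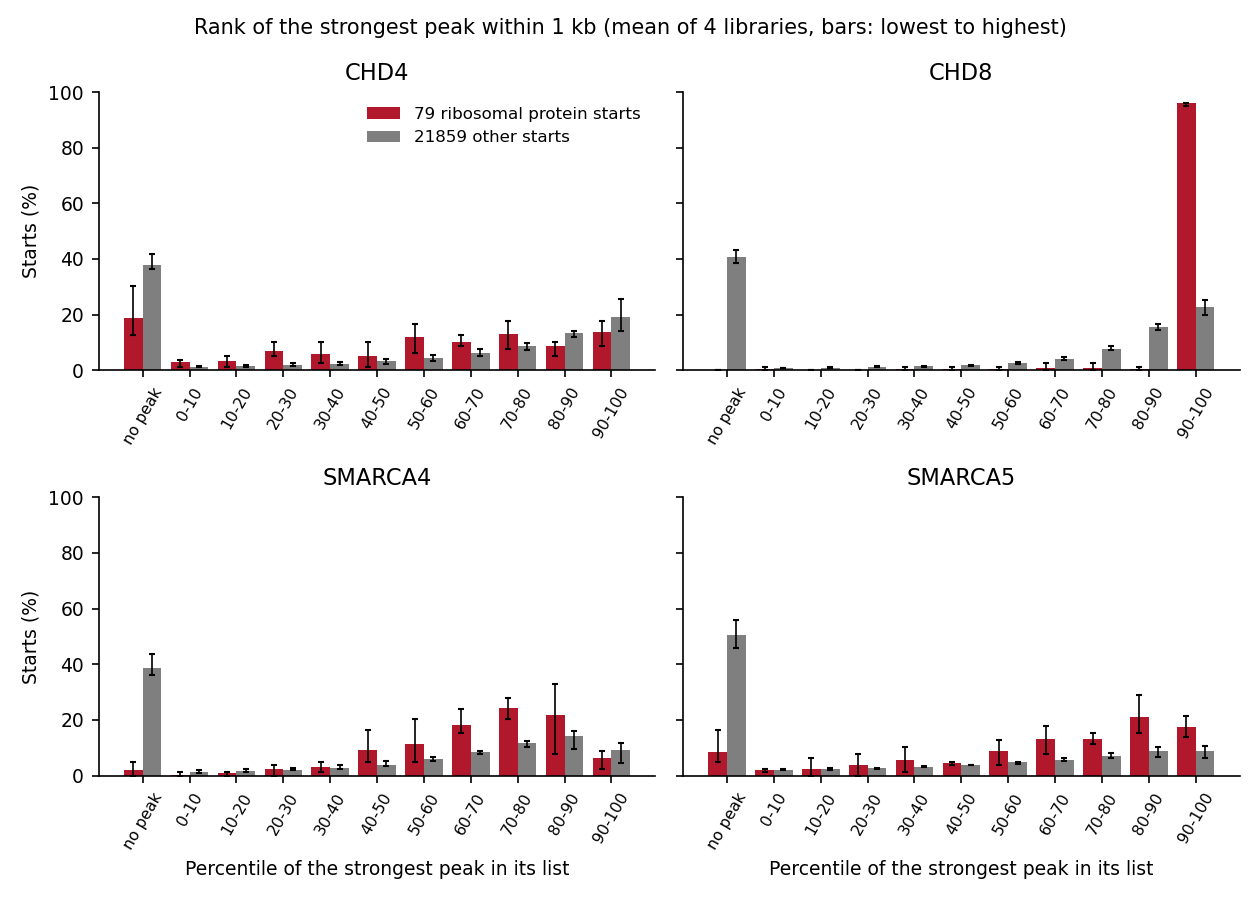
Share of the 79 ribosomal protein starts (red) and the 21859 other starts (grey), in percent, whose strongest peak within 1 kb fell in each class of 10 percentile points of its list, or which had no peak; bars are means of 4 libraries and lines run from the lowest to the highest library. For CHD8 94.9% to 96.2% of the ribosomal protein starts fall in the 90-100 class.

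Single members stood high in the other lists. By mean percentile at the annotated start at 0 h, CHD4 ranked Rpl37a, Rpl3 and Rps14 highest. Rpl37a, of the large subunit, had CHD4 fold enrichments of 21.1 and 16.8 at 0 h and 16.8 and 9.47 at 12 h. For Rpl3, which lines the peptidyl transferase centre, and Rps14, of the small-subunit platform, these strong CHD4 peaks lay at annotated starts 8462 bp and 27498 bp from the principal starts. At its principal start Rpl3 had 2.70 and 4.83 at 0 h, and a peak in 1 of the 12 h libraries, with 3.25. Rps14 had 7.42 and 5.38 there at 0 h and 4.18 and 3.86 at 12 h.

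SMARCA4 ranked Rpl3 (again at the upstream start), Rps21 and Rps15a highest. Rps21 had 10.8 and 9.36 at 0 h and 15.7 and 12.0 at 12 h, and Rps15a 8.67 and 7.72 at 0 h and 11.5 and 8.79 at 12 h. For Rps21, a small-subunit protein, and for Rps15a, both 12 h values were above both 0 h values. SMARCA5 ranked Rpl18, Rpl38 and Rps19 highest. Rpl18 had 6.71 and 5.26 at 0 h and 6.04 and 3.65 at 12 h. Rpl38, known for its part in translating Hox messages, had 6.01 and 5.89 at 0 h and 4.05 and 4.03 at 12 h. Rps19, the gene most often mutated in Diamond-Blackfan anaemia, had 5.66 and 5.60 at 0 h and 5.37 and 4.59 at 12 h. For Rpl38 and Rps19, picked by their 0 h rank, both 12 h values were below both 0 h values. Fold enrichments of separate lists are set side by side here and were not tested.

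The members with a peak in all 16 libraries whose lowest percentile was highest were Rps21 (85.7), Rps19 (79.6), Rpl3 (73.1, at its upstream start), Rpl5 (71.6) and Rpl7 (67.03). In Rps21 the strongest CHD4 summits lay upstream, between -1240 and -1141 bp from the start, while its CHD8 summits lay 61 to 109 bp downstream. In Rps19 the CHD4 summits lay between -763 and -631 bp, and the CHD8 summits between -101 and -62 bp.

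Summits of the remodelers took separate places around the start. Positions are in bp from the start, negative upstream. The median CHD8 summit of the members lay 135 to 155 bp downstream of the principal start, against 50 to 77 bp downstream at other starts. It lay 122 to 184 bp downstream at the 7 ribosomal protein genes outside the pattern, and 65 to 124 bp over the remaining gene groups. CHD8 summits were downstream at 78.5% to 83.5% of the members and 58.1% to 62.9% of other starts with a peak. The share was 71.8% to 79.5% at mitochondrial ribosomal protein genes, a range that overlaps that of the members, and 100% at the 7 genes. CHD4 summits lay on the other side, with medians between -280 and -166 bp at the members and 71 to 106 bp downstream at other starts. The share of CHD4 summits downstream of the start was 21.5% to 39.1% at the members and 56.2% to 61.8% elsewhere, without overlap over the 4 libraries. It was 20% to 50% at the 18 translation genes and 30.8% to 52.8% at the ribosome biogenesis genes, ranges that overlap that of the members.

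SMARCA4 and SMARCA5 summits were rare at the start itself. Within 100 bp of the start lay 0% to 5.33% of SMARCA4 summits at the members and 8.37% to 11.1% at other starts. The corresponding SMARCA5 shares were 0% to 3.03% and 4.30% to 6.35%. SMARCA4 shares were likewise low at ribosome biogenesis genes (0% to 2.44%) and proteasome genes (0% to 5.41%). They were 0% to 5.71% at complex I genes, 0% to 5.88% at other translation genes and 5.19% to 11.4% at mitochondrial ribosomal protein genes. For SMARCA5 these groups ran from 0% to at most 7.69%, except 3.33% to 11.5% at mitochondrial ribosomal protein genes. SMARCA4 and SMARCA5 summits of the members fell to both sides, so the median SMARCA5 offset ran from -198 to 240 bp over the 4 libraries. These summit offsets describe the strongest peak at each start and depend on peak width. CHD4 replicate 2 lists held narrow peaks, with median widths of 119 bp at 0 h and 94 bp at 12 h, against 433 and 475 bp in replicate 1.

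**Figure D4:**
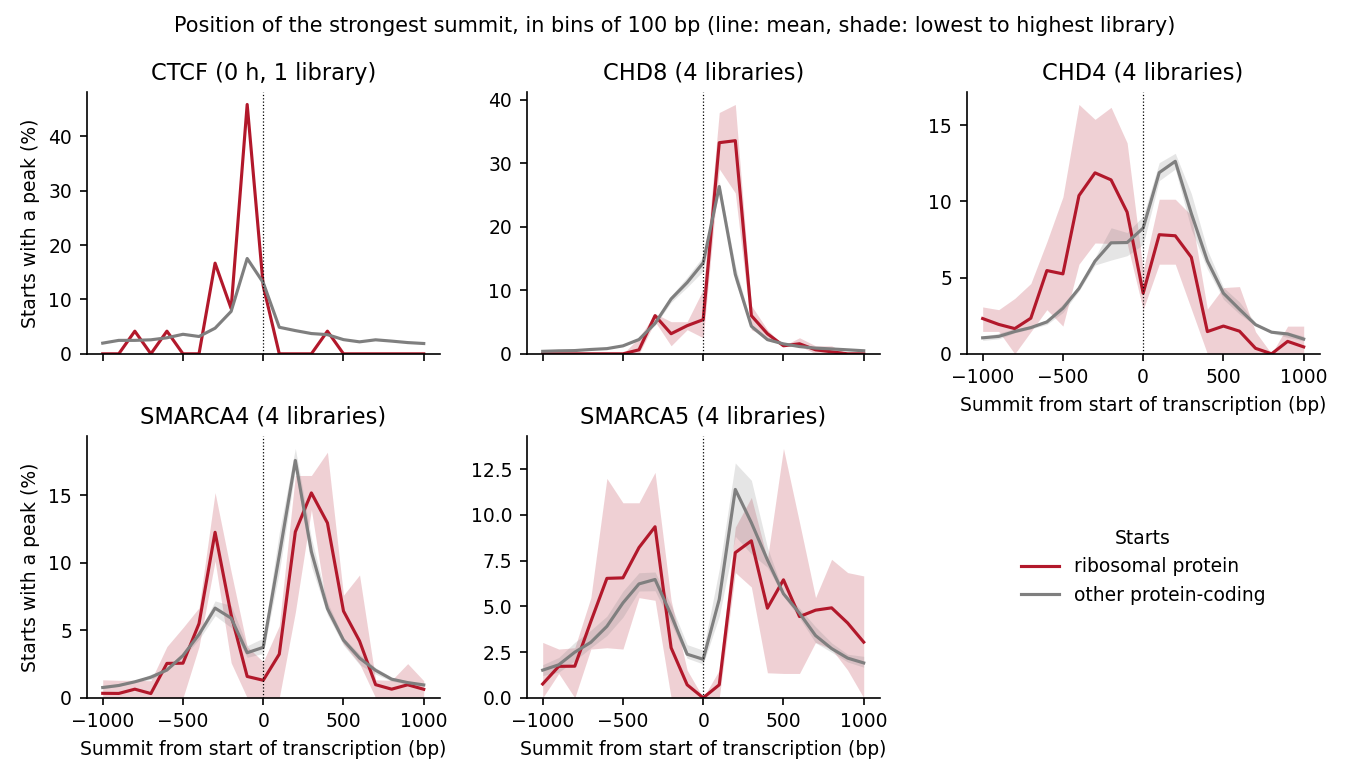
Position of the strongest summit relative to the principal start in bins of 100 bp, as the percentage of starts with a peak; red lines are ribosomal protein starts and grey lines other protein-coding starts, and shades run from the lowest to the highest library. CHD8 summits of the members centre 135 to 155 bp downstream, CHD4 summits lean upstream, and SMARCA4 and SMARCA5 summits leave a dip at the start.

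CTCF peaks were more common at ribosomal protein starts than at other starts. At 0 h a CTCF peak reached 25 of the 79 members (31.6%, exact Clopper-Pearson 95% interval 21.6% to 43.1%). The share was 13.6% of other starts (13.2% to 14.1%), and 13.7% over all starts. The intervals cover counting error over starts only, and CTCF has 1 library at each time. Other gene groups also lay above the 13.6%, though below the members. The higher of the 0 h and 12 h shares was 16.7% at other translation genes and 18.2% at ribosome biogenesis genes. It was 17.9% at both mitochondrial ribosomal protein and proteasome genes. Respiratory complex I genes had the highest share of these groups, inside the interval of the members. The groups were not tested against the members. The 25 members comprised 16 large-subunit genes (among them Rpl3, Rpl5, Rpl7, Rpl10a, Rpl11, Rpl13a, Rpl23a, Rpl26, Rpl27, Rpl32, Rpl35, Rpl36, Rpl36a, Rpl37 and Rpl38). The stalk gene Rplp0 and 8 small-subunit genes (among them Rps4x, Rps15, Rps20, Rps24, Rps26 and Rps29) made up the rest. At principal starts the count was 24 of 79 (30.4%, against 13.6% of all starts), since Rpl3 and Rps24 dropped out and Rps14 came in.

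The CTCF summits lay just upstream of the start. Of the 24 strongest summits at principal starts, 1 was downstream (4.17%, at Rpl23a), against 36.6% at other starts, and the median position was -115 bp. Their median percentile in the CTCF list was 86.4, against 58.1 at other starts with a CTCF peak. Over the 0 h and 12 h lists it was 87.4 to 92.7 at ribosome biogenesis genes, with 0% to 12.5% of summits downstream. Proteasome genes gave 81.6 to 90.8, with 0% downstream. The median percentile was 71.2 to 82.3 at other translation genes, 70.0 to 80.6 at mitochondrial ribosomal protein genes and 46.1 to 62.8 at complex I genes. In these 3 groups up to 33.3%, 33.3% and 30% of summits lay downstream. Among the members, Rplp0 had the highest fold enrichment, 60.03 at -149 bp, followed by Rpl36 with 51.5 at -71 bp. Rpl37 (38.3), Rps14 (36.1), Rpl5 (27.9), Rps29 (27.4), Rpl38 (25.8) and Rpl11 (25.3) were also high. Rpl23a (3.76), Rpl35 (4.27), Rps26 (7.18), Rps15 (9.64) and Rpl27 (10.3) were the lowest. Rps20, Rps4x, Rpl7, Rpl10a, Rpl26, Rpl36a, Rpl13a and Rpl32 lay between 13.4 and 20.5.

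The sites that carry a recognisable CTCF motif are shown for the 5 genes whose motif-bearing summit lay within 200 bp of the start. Each line gives 30 bases of the GRCm38 reference on the strand of the motif, with the 12 positions of the motif core, the stretch that CTCF sites share most, in capitals. They lie at chr5:115559281-115559310 (plus strand), chr17:56613319-56613348 (plus), chr5:107900456-107900485 (plus), chr11:114668449-114668478 (plus) and chrX:102189427-102189456 (minus), in the order printed. The annotation places all 5 summits outside any gene.
Rplp0: ggctccgacCCAGCAGAGGGCagcaggtct
Rpl36: aacctccggCCACCAGAGGTCgcccgcagc
Rpl5: atcctcctaCCGGCAGGGGGCgatagcccg
Rpl38: taatctgaaCCAGAAGAGGGCagggctgct
Rps4x: gacctcccaCCAGCAGATGGCaagagagag

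About as many CTCF peaks of the members lacked a motif match as held one. A 20-position model of the CTCF motif, built from 13153 sites at CTCF peaks over 1 kb from any start and set to match 5% of windows moved by 100 kb, matched within 100 bp of the summit at 12 of the 25 CTCF peaks at principal starts (48.0%; Rpl38 has 2 peaks). It matched 80.2% of all 29934 CTCF peaks and 52.9% of the 2891 peaks near any protein-coding start. The 29934 include the 13153 peaks whose sites built the model, which raises the 80.2%. Peaks near starts gave the model no site, so these 2 shares are not on equal terms. Of the 15 member peaks with a summit within 200 bp of the start, 5 matched (33.3%), against 46.5% of 1232 such peaks at all starts. Of the 10 farther away, 7 matched (70.0%), against 57.6% of 1659. The 10 close peaks without a match included those of Rpl10a, Rpl11, Rpl26, Rpl27, Rpl36a, Rps15, Rps20 and Rps26. Both 0 h CHD8 lists had a peak overlapping each of the 25 CTCF peaks.

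**Figure D5:**
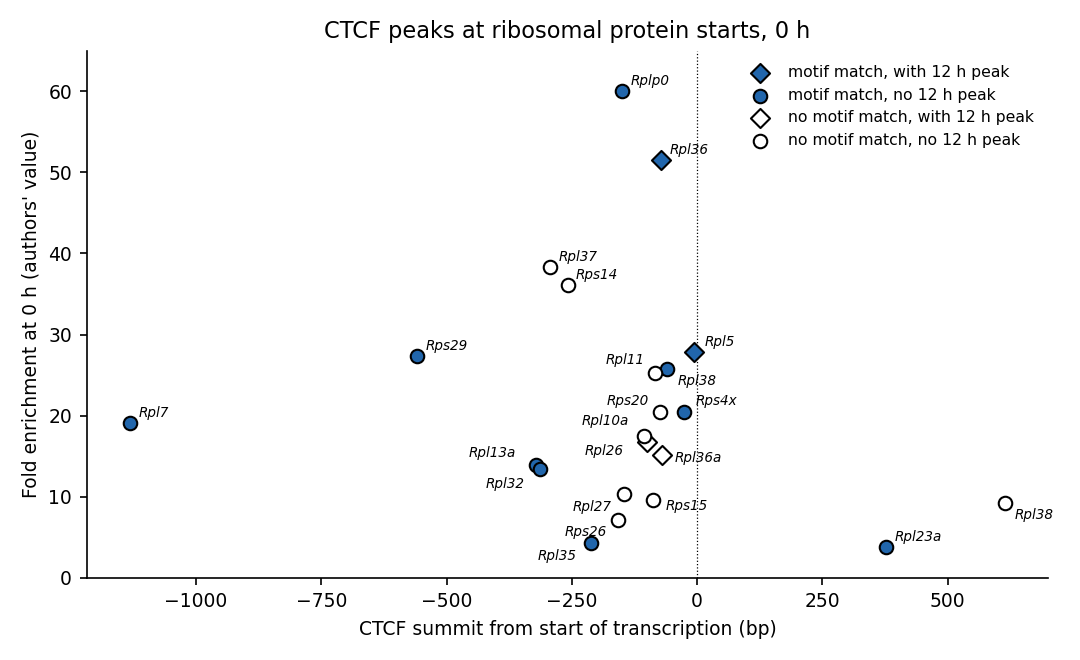
Fold enrichment of 22 of the 25 CTCF peaks within 1 kb of a principal ribosomal protein start at 0 h (authors' value) against the distance of its summit from the start in bp; filled symbols match the CTCF motif model and diamonds keep a CTCF peak at 12 h. The summits lie upstream except for those of Rpl23a and the second peak of Rpl38, and open symbols gather close to the start.

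After 12 h of IAA most of these CTCF peaks were no longer listed. Of the 25 members with a CTCF peak at their annotated start at 0 h, 19 had none at 12 h, or 24.1% of the 79, against 11.9% of all starts. These 2 shares carry the higher 0 h share of the members. Over all starts, 3001 had a 0 h peak and 2600 of them had none at 12 h. At principal starts 20.8% of the members with a 0 h peak had a 12 h peak, against 13.5% of other starts with a 0 h peak. A 12 h peak was present at 6 members (7.59%, exact Clopper-Pearson 95% interval 2.84% to 15.8%), against 1.81% of other starts and 1.83% of all. They included Rpl3 (at its upstream start), Rpl5, Rpl26, Rpl36 and Rpl36a. Other gene groups also lay above the 1.81%. The lower of the 0 h and 12 h shares was 5.56% at both complex I and other translation genes. It was 4.55% at ribosome biogenesis, 3.85% at mitochondrial ribosomal protein and 2.56% at proteasome genes. At the ribosomal protein genes outside the pattern it was 0%. These groups were not tested against the members. Fold enrichment was 27.9 at 0 h and 20.2 at 12 h for Rpl5, and 51.5 and 16.7 for Rpl36. It was 16.7 and 9.16 for Rpl26 and 15.1 and 6.97 for Rpl36a. Rplp0, with the highest 0 h value, had no 12 h peak.

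Peak by peak at principal starts, 5 of 25 CTCF peaks overlapped a 12 h peak (20%), against 13.6% of the 2891 near any start and 7.44% of all CTCF peaks. Among these 5, Rpl5 and Rpl36 held the motif and Rpl26 and Rpl36a gave no match. The 12 h list is far shorter than the 0 h list, so a peak that is not listed at 12 h is not a measure of lost protein.

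SMC1A did not share the excess. At 0 h an SMC1A peak reached 8 members (10.1%, exact Clopper-Pearson 95% interval 4.47% to 19.0%), against 11.1% of other starts (10.7% to 11.5%) and 11.1% of all. They were Rpl3 (upstream start), Rpl10a, Rpl14, Rpl22, Rpl27, Rpl38, Rps27a and Rps29. The SMC1A peaks of Rpl38 (fold 6.10, percentile 63.9) and Rpl14 (7.14, percentile 75.2, summit at -1269 bp) were the strongest at principal starts, and the other 5 had folds of 2.90 to 3.94 and percentiles of at most 13.8. Of the 24 members with CTCF at the principal start, 16.7% had an SMC1A peak within 1 kb, against 46.2% of other starts with CTCF. Without CTCF the shares were 5.45% and 5.52%. At 12 h no member had an SMC1A peak, in a list of 10 peaks.

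The 12 h libraries were set against the 0 h libraries, remodeler by remodeler. CHD8 occupancy was 98.1% ± 0.90 (SD, n = 2) of members at 0 h and 98.7% ± 0 at 12 h, and SMARCA4 occupancy 96.2% ± 3.58 and 96.8% ± 2.69, differences of 0.63 percentage points that lay within the spread between libraries. CHD4 occupancy was 85.4% ± 0.90 at 0 h and 74.7% ± 8.95 at 12 h. The difference of -10.76 points, against -2.58 at other starts, is larger than the pooled SD of 6.36, and the libraries of the members do not overlap. SMARCA5 occupancy was 86.7% ± 6.27 and 93.0% ± 0.90. Its difference of 6.33 points, against 2.62 at other starts, exceeds the pooled SD of 4.48, again without overlap. Some other gene groups moved likewise. The CHD4 difference was -11.1 points at complex I genes, -10.3 at mitochondrial ribosomal protein genes and -5.68 at ribosome biogenesis genes, each without overlap. With overlap it was -14.3 at the 7 ribosomal protein genes outside the pattern, -2.78 at the other translation genes and 0 at proteasome genes. SMARCA5 differed by 5.77 points at mitochondrial ribosomal protein genes, without overlap. With overlap it differed by 5.56 at complex I genes, 4.55 at ribosome biogenesis genes and 3.85 at proteasome genes. At the other translation genes the SMARCA5 difference was -2.78, also with overlap.

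Both differences rest on single libraries. Without 12 h replicate 2 the CHD4 difference is -4.43 points, and without 12 h replicate 1 it is -17.1. Equal list lengths give -5.70, and a stricter peak threshold (−log10 q of at least 5) -20.9. The SMARCA5 difference is 1.90 points without 0 h replicate 1 and 10.8 without 0 h replicate 2, and 1.90 when the summit itself must lie within 1 kb. Peak names inside the lists follow 2 styles, and the part of this in the differences was not tested. The CHD4 lists of one style go from 84.8% and 86.1% at 0 h to 68.4%, and the 12 h list at 81.0% is the only CHD4 list in the other. SMARCA5 went from 82.3% to 92.4% in one style and from 91.1% to 93.7% in the other.

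Within the set, the CHD4 difference was -15 points at small-subunit genes, whose libraries did not overlap (83.3% ± 0 and 68.3% ± 7.07). It was -8.70 at large-subunit genes (85.9% ± 1.54 and 77.2% ± 10.8), whose libraries did. The stalk genes had a CHD4 peak in all 4 libraries. The difference between the subunits was not tested. At members with a CTCF peak at the principal start CHD4 went from 89.6% ± 2.95 to 75% ± 11.8, and at members without one from 85.5% ± 2.57 to 76.4% ± 7.71, so both classes moved the same way by amounts that their spread does not separate. CHD8 occupancy was 100% at both times in both classes. At other starts with a CTCF peak CHD8 went from 88.7% ± 2.73 to 82.9% ± 3.67 and CHD4 from 92.9% ± 0.02 to 87.1% ± 4.03.

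Few members changed in both libraries of a remodeler. Rps3, a small-subunit protein at the messenger RNA entry channel, had CHD4 peaks in both 0 h libraries (fold 5.05 and 3.61) and in neither at 12 h. It was the only member lost from CHD4, where 1.24% of all starts were lost. No member gained CHD4 in this sense, where 0.397% of all starts did. Rpl10, which joins the large subunit late in its assembly, and Rpl39, a small protein of the exit tunnel, had no SMARCA5 peak at 0 h and one in both 12 h libraries. Fold enrichments there were 4.34 and 3.51 for Rpl10 and 3.26 and 4.37 for Rpl39.

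These were the only members that gained SMARCA5, 2 of 79 (2.53%), against 1.58% of all starts. No member lost SMARCA5 (0.675% of all starts), and none lost or gained CHD8 (0.82% and 0.255%) or SMARCA4 (0.456% and 1.09%). The 3 member calls are close to what the shares over all starts give. They concern weak peaks: with a −log10 q of at least 5 none of the 3 is called.

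Rpl10 and Rpl39 are both on the X chromosome, where remodeler peaks were less frequent. The 4 X-linked members had SMARCA5 peaks in 25% ± 35.4 of cases at 0 h and 75% ± 35.4 at 12 h (SD, n = 2 libraries), and CHD4 peaks in 37.5% ± 17.7 at both times. The 944 other starts on the X chromosome had SMARCA5 at 9.53% ± 3.30 and 17.7% ± 1.57, libraries that did not overlap, and CHD4 at 33.5% ± 1.35 and 31.1% ± 7.04. CHD8 lay at all 4 X-linked members in every library. Over the 75 autosomal members the SMARCA5 difference was 4.00 points, with overlapping libraries, and the CHD4 difference -11.3 points without overlap.

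A two-sided exact permutation test asked at each start whether peaks of the 4 remodelers together were more or less frequent at 12 h, with times exchanged within each remodeler (1296 relabellings, smallest possible p 0.00154). Of 8783 starts tested, 42 of them members, none passed a Benjamini-Hochberg adjusted p of 0.05. An unadjusted exact p under 0.05 was reached by 22 starts, 14 with fewer peaks at 12 h and 8 with more, and by no member. An adjusted p of 0.05 would need at least 272 starts at the smallest possible p, so the design could hardly give a call, and opposite moves of 2 remodelers cancel in this test.

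Some sequence features that the choice of genes did not use were more frequent at the promoters of the members than at all promoters. Most of these motifs were found at a minority of the members, and the other gene groups were not searched apart. Motifs were searched on both strands from 250 bases before to 50 after the principal start, and shares are set against all 21938 protein-coding promoters. The ETS core CCGGAAG occurred at 24 members (30.4%, against 11.2%) and the YY1 core AAGATGG at 11 (13.9%, against 6.38%). The GC box GGGCGG occurred at 51.9%, against 45.4%, the E-box CACGTG at 11.4%, against 7.74%, and the NRF1 motif letters GCGCATGC at 5.06%, against 3.74%. TATAAA between 45 and 15 bases before the start was found at no member and at 2.87% of all promoters. CTTT on the sense strand within 10 bases of the start occurred at 17 members (21.5%, against 8.15%), and a pyrimidine run of at least 8 bases at the start at 27 (34.2%, against 13.6%). The members held a median of 19 CpG in the window, against 12 at other promoters, at like GC content (55.5% and 55.8%). A match describes letters only.

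Members with and without these motifs were compared by rank and by occupancy, as a description with no test. The median CHD8 percentile at 0 h was 99.4 at the 24 members with CCGGAAG and 98.5 at the 55 without, and 99.4 at the 27 with a pyrimidine run at the start and 98.4 at the 52 without. The median CHD4 percentile was 52.8 at the 11 members with AAGATGG and 70.8 at the 68 without at 0 h, and 40.2 and 62.3 at 12 h. With and without CCGGAAG it was 73.9 and 66.3 at 0 h and 61.2 and 61.6 at 12 h. SMARCA5 occupancy at 0 h was 96.3% at members with a pyrimidine run and 83.7% at those without, and 96.3% and 94.2% at 12 h. At the 13 members with another protein-coding start within 1 kb, such as Rpl35a beside Iqcg and Rps28 beside Ndufa7, peaks cannot be assigned to 1 of the starts. Their median CHD8 percentile at 0 h was 99.1, against 98.7 at the other 66, so the high rank does not rest on them.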

How the data were processed

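ChIP-seq peak lists of 20 of the 30 samples were used; the 10 input samples were not analysed here. The deposited lists hold, for each peak, its position, a fold enrichment (a ratio), −log10 p and −log10 q values, a summit and an integer score, 1 list per sample. The authors made the fold, −log10 and score values; here fold and −log10 values served to order or select the peaks of 1 list at a time, and the score was not used. The submitters' processing notes name Trim Galore, Bowtie2, MACS2 and deepTools and the builds mm10 and hg38, without roles or versions. The control and the peak threshold are not given in the sources used here. Shorter or differently thresholded lists lower the share of occupied starts.

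Starts came from GENCODE M21 on GRCm38. A peak reaching within 1 kb of a start made it occupied. Percentiles rank −log10 p within a list. A start was lost or gained when both libraries of one time and neither of the other had a peak. The exact permutation test exchanged times within each remodeler and was tested on simulated data. Sequences were read from the GRCm38 reference with samtools 1.23.1; Python 3.11.15, numpy 2.4.6, pandas 2.3.3 and scipy 1.17.1 were used. The genes and gene lists were chosen with earlier results of these data known. Named genes are those lost or gained, those with CTCF or SMC1A peaks, those with a peak in fewer than 8 of 16 remodeler libraries, the 3 with the highest mean percentile at 0 h for each remodeler, and the 5 with the highest lowest percentile over 16 libraries; others are named where the text says so or where a count is small. Results for some of these genes are not reported here.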

Additional observations from a re-analysis of the deposited data

Results flagged for a closer look

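The differences between 12 h and 0 h in the share of ribosomal protein starts with a peak went in opposite directions for CHD4 (-10.76 percentage points) and SMARCA5 (6.33 points), 17.1 points apart. They stand out because both 12 h libraries of CHD4 were below both 0 h libraries, and both 12 h libraries of SMARCA5 above both 0 h libraries. The difference was not tested. Mitochondrial ribosomal protein genes showed the same pair of moves, -10.3 points for CHD4 and 5.77 for SMARCA5, each without overlap. The CHD4 list of 12 h replicate 2, with 68.4% of members occupied, had a median peak width of 94 bp.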

How the results depend on the processing

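Of 99 alternative values of occupancy, calls and the exact test, 67 counted as unchanged, 28 moved and 4 changed sign. Values leaving out a library were kept apart. Unchanged meant within the SD between libraries for gaps and differences, and within the exact interval for CTCF and SMC1A shares. For counts it meant equal or within a ratio of 1.5. The 67 include the 0 calls of the exact test, which could hardly have differed. Gaps and differences are in percentage points, and the cause of each move was not tested. With a −log10 q of at least 5 the gaps at 0 h were 10.5 (CHD4), 42.2 (CHD8), 38.5 (SMARCA4) and 28.1 (SMARCA5), the differences between times -20.9 (CHD4), -0.63 (CHD8, reversed) and -1.90 (SMARCA4, reversed), the SMC1A share 3.80%, and 9 member and remodeler pairs were lost. With a 250 bp window the gaps were 14.6 (CHD4), 40.6 (CHD8) and 24.5 (SMARCA5), the SMARCA4 difference -3.16 (reversed), with 5 pairs lost and 4 gained. With the summit inside the window the gaps were 23.4 (CHD4) and 34.1 (SMARCA4), the CHD8 difference 0, and 3 pairs were lost. The CHD8 difference was also 0 with any transcript start, with equal list lengths and at principal starts. Equal lengths gave gaps of 16.2 (CHD4) and 37.1 (SMARCA5), a SMARCA4 difference of -2.53 (reversed) and 4 pairs gained. Without the restricted paralogues the SMARCA5 gap was 40.4. Chosen after seeing the data, principal starts gave gaps of 23.4 (CHD4), 40.1 (CHD8) and 39.8 (SMARCA5), and autosomal starts 23.6 (CHD4) and 40.5 (SMARCA5). Of 10 alternative values of CHD8 rank and summit position, also chosen after seeing the data, 3 moved: the members' share in the top 10% at 0 h, 95.6%, was 90.5% with a −log10 q of at least 5, 91.1% at annotated starts and 98.03% without the restricted paralogues. Leaving out 1 library gave differences of -17.1 to -4.43 (CHD4), 0 to 1.27 (CHD8), -1.90 to 3.16 (SMARCA4; -1.27 without 12 h replicate 2) and 1.90 to 10.8 (SMARCA5), with 1 to 12 pairs lost and 2 to 9 gained, against 1 and 2 as reported.

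The exact permutation test could hardly pass the adjusted threshold, so its 0 calls in each setting run say nothing of stability; 17 to 38 starts had an unadjusted p under 0.05, apart from the block. With the replicate number as a block it also called 0, with 9 starts at an unadjusted p under 0.05. The labels do not say that equal numbers mark a shared culture. The lists give no depth, so a missing peak cannot be told from one below the authors' threshold.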
